A study of Mus musculus with 30 samples.

Results

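The sterol and fatty acid synthesis genes were 33 mouse genes, listed by their place in the pathway. They comprised 18 enzymes of cholesterol synthesis, 8 enzymes that build, elongate or desaturate fatty acids, 2 enzymes that supply acetyl-CoA, and 5 genes for regulators of the pathway and a sterol carrier. Array probes were assigned to them by gene symbol, current or older, so that Msmo1 was also searched as Sc4mol. In all, 41 probes represented 32 of the genes, and the expression of Acat2 was not analysed here. Of 9809 genes tested across the array, 29 were members: 15 sterol enzymes, 8 fatty acid enzymes, 4 regulators or carriers and both acetyl-CoA suppliers. The probes of Fdft1 (squalene synthase), Sc5d (lathosterol oxidase) and Srebf1 (a transcription factor) lay above the background limit on 0 of 28 samples and are not described further. Each of the 29 tested members lay above it on 28 of 28 samples, so none entered the tests through 1 bright group.

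The cells were male mouse embryonic stem (ES) cells of the line Ainv15, a single line in every group, measured on Illumina BeadChips with 4 samples in each of 7 groups. All groups were sampled after 6 hours under 6% CO2. The 1% O2+DAPT cells were kept in serum-free N2B27 medium under 1% oxygen with DAPT at 2.5 ng/ml, a gamma-secretase inhibitor that blocks the release of active Notch, after 4 hours of DAPT in ES cell medium. The DAPT cells had the same treatment without the low oxygen. The 1% O2+Dox cells were in N2B27 under 1% oxygen with doxycycline at 2 ug/ml, and the Dox cells had doxycycline without low oxygen. The 1% O2 cells were in N2B27 under 1% oxygen, the N2B27 cells in N2B27 alone, and the ESC cells in ES cell medium. As known of the study, doxycycline induces an active form of Notch1 in this line, which the labels do not name. No group lacked the transgene, so an effect of doxycycline itself cannot be told apart from that of the induced gene. What the other groups were kept in beforehand is not stated, so the pretreatment and DAPT cannot be told apart either. ES cell medium held 5% fetal calf serum, 5% serum replacement and LIF, whereas N2B27 held 0.5% N2 and 0.5% B27 supplement and no serum.

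Cells make cholesterol from acetyl-CoA through mevalonate, the isoprenoids, squalene and lanosterol, and they make saturated fatty acids from the same precursor before elongating and desaturating them. Transcription of most of these enzymes is driven by the SREBP factors (products of Srebf1 and Srebf2). SREBPs are held in the endoplasmic reticulum by INSIG proteins while membrane sterol is plentiful and are released when it falls. Several steps, among them squalene epoxidation, the removal of methyl groups from lanosterol and every desaturation, consume molecular oxygen. Serum carries cholesterol and fatty acids in lipoproteins, while N2B27 contains no lipoproteins from serum.

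Levels are log2 normalized intensities, and the values of a group are given in the order of replicates 1 to 4. Differences between groups are differences of these log2 levels with the standard error (SE) of the linear model. A gene was called changed where its limma p-value, adjusted by the Benjamini-Hochberg method over all 9809 genes, was below 0.05. Replicates of the same number varied together across groups, so a second fit with the replicate number as a block is given where it alters a call. Across the array, replicates 1 and 2 stood apart from replicates 3 and 4 in every group, with 6885 of 9809 genes differing between these sets, and 20 of the 29 members were among them. The largest such member differences (replicates 1 and 2 minus 3 and 4) were -1.36 for Idi1, 0.83 for Cyp51 and Fads2, and 0.76 for Mvk. The low oxygen marker genes Adm and Egln3 were higher by 4.54 ± 0.13 and 3.79 ± 0.13 under 1% oxygen, and the Notch targets Nrarp and Hes5 by 3.45 ± 0.29 and 2.93 ± 0.22 in Dox against N2B27 samples. ES cell markers lay above the limit in every sample for 10 of 10 genes with a probe.

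Serum-free medium was compared with ES cell medium to ask whether the pathway genes differed between these media after 6 hours. The media also differed in the other components given above, so the part of serum cannot be told apart. The desaturase genes Scd1 and Scd2 and the sterol enzyme gene Hsd17b7 were higher in N2B27. Scd1 and Scd2 encode stearoyl-CoA desaturases, which put the first double bond into saturated fatty acids, and Hsd17b7 encodes a ketosteroid reductase of cholesterol synthesis. Scd1 levels were 11.67, 11.67, 11.99 and 11.20 in N2B27 samples, against 10.68, 10.87, 11.14 and 10.51 in ESC samples. Scd2 levels were 14.79, 14.45, 14.46 and 14.13 in N2B27 samples, against 13.92, 13.68, 13.69 and 13.40 in ESC samples. Hsd17b7 levels were 10.63, 10.51, 10.54 and 10.49 in N2B27 samples, against 9.98, 10.03, 10.10 and 9.98 in ESC samples. For all 3 genes the lowest N2B27 sample lay above the highest ESC sample. The difference was 0.83 ± 0.20 for Scd1 (1.78-fold, limma adjusted p = 0.0290, n = 4 per group). It was 0.78 ± 0.20 for Scd2 (1.72-fold, limma adjusted p = 0.0354) and 0.51 ± 0.11 for Hsd17b7 (1.43-fold, limma adjusted p = 0.0102). In the fit without the block, leaving out 1 sample ended the call of Scd1 in 6 of 8 cases (highest adjusted p = 0.120, without N2B27 replicate 3). It ended that of Scd2 in 6 of 8 (0.131, without N2B27 replicate 1) and that of Hsd17b7 in 0 of 8. With the block and all samples, the limma adjusted p-values were 3.44e-08 for Scd1, 1.55e-08 for Scd2 and 1.52e-05 for Hsd17b7. The 3 members were the only ones called of 29, all higher, where 1.22% of all genes were called higher, 0.714% lower and 1.94% in either direction.

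With the replicate block, 12 members were called higher and 1 lower in N2B27 than in ESC samples, where 8.37% and 7.69% of all genes were. The additional ones were Hmgcs1, Stard4, Msmo1, Insig1, Lss, Acss2, Fdps, Nsdhl and Fads1, and the lower one was Pmvk. Hmgcs1, the synthase that makes the substrate of HMG-CoA reductase, had levels of 14.75, 14.38, 14.17 and 14.05 in N2B27 samples, against 13.80, 13.58, 13.82 and 13.52 in ESC samples. Stard4, a carrier that moves cholesterol between membranes, had 11.15, 10.99, 11.11 and 10.95 in N2B27 samples, against 10.40, 10.34, 10.63 and 10.21 in ESC samples. Msmo1, the oxygen-using methylsterol oxidase, had 12.93, 12.90, 12.92 and 12.67 in N2B27 samples, against 12.33, 12.53, 12.43 and 12.11 in ESC samples. None of these 3 genes overlapped between the groups. Their differences were 0.66 ± 0.19, 0.66 ± 0.18 and 0.50 ± 0.17, with limma adjusted p-values of 0.0738, 0.0667 and 0.164 without the block and 4.79e-06, 0.000107 and 0.000373 with it. Insig1, which encodes the anchor protein described above, differed by 0.39 ± 0.28 (blocked adjusted p = 0.00299), and a second Insig1 probe gave 0.18. Fads1, the delta-5 desaturase of polyunsaturated fatty acids, had levels of 12.71, 12.57, 12.95 and 12.71 in N2B27 samples, against 12.30, 12.44, 12.79 and 12.51 in ESC samples. These 2 ranges overlapped, although N2B27 was the higher in 4 of 4 pairs of the same number (difference 0.23 ± 0.11, blocked adjusted p = 0.0419). Pmvk, the second kinase of the mevalonate steps, was lower in 4 of 4 pairs, with 9.16, 9.40, 9.52 and 9.07 in N2B27 samples, against 9.42, 9.41, 9.80 and 9.49 in ESC samples (difference -0.24 ± 0.14, blocked adjusted p = 0.0307).

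Of the 29 members, 24 were higher on average in N2B27 than in ESC samples, and 18 were higher in 4 of 4 pairs, which held for 18.9% of all genes. The median difference of the members was 0.23, against 0.01 over all genes tested. In 7 members the 2 groups did not overlap, with N2B27 the higher, which held for 4.13% of all genes. The 15 sterol enzymes had a median of 0.25, with a range of -0.24 (Pmvk) to 0.66 (Hmgcs1), and 6 of them were called higher with the block. The 8 fatty acid enzymes had a median of 0.17, with a range of -0.09 (Elovl5) to 0.83 (Scd1), and 3 of them were called higher with the block. Fasn, the synthase that builds palmitate, differed by 0.03 ± 0.22, and Acaca, the carboxylase that makes its substrate, by 0.14 ± 0.10 with a second probe at -0.12. The regulators Srebf2 (-0.13 ± 0.12) and Insig2 (-0.09 ± 0.13) were among the 5 members with negative values, beside Ebp, Elovl5 and Pmvk.

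**Figure D1:**
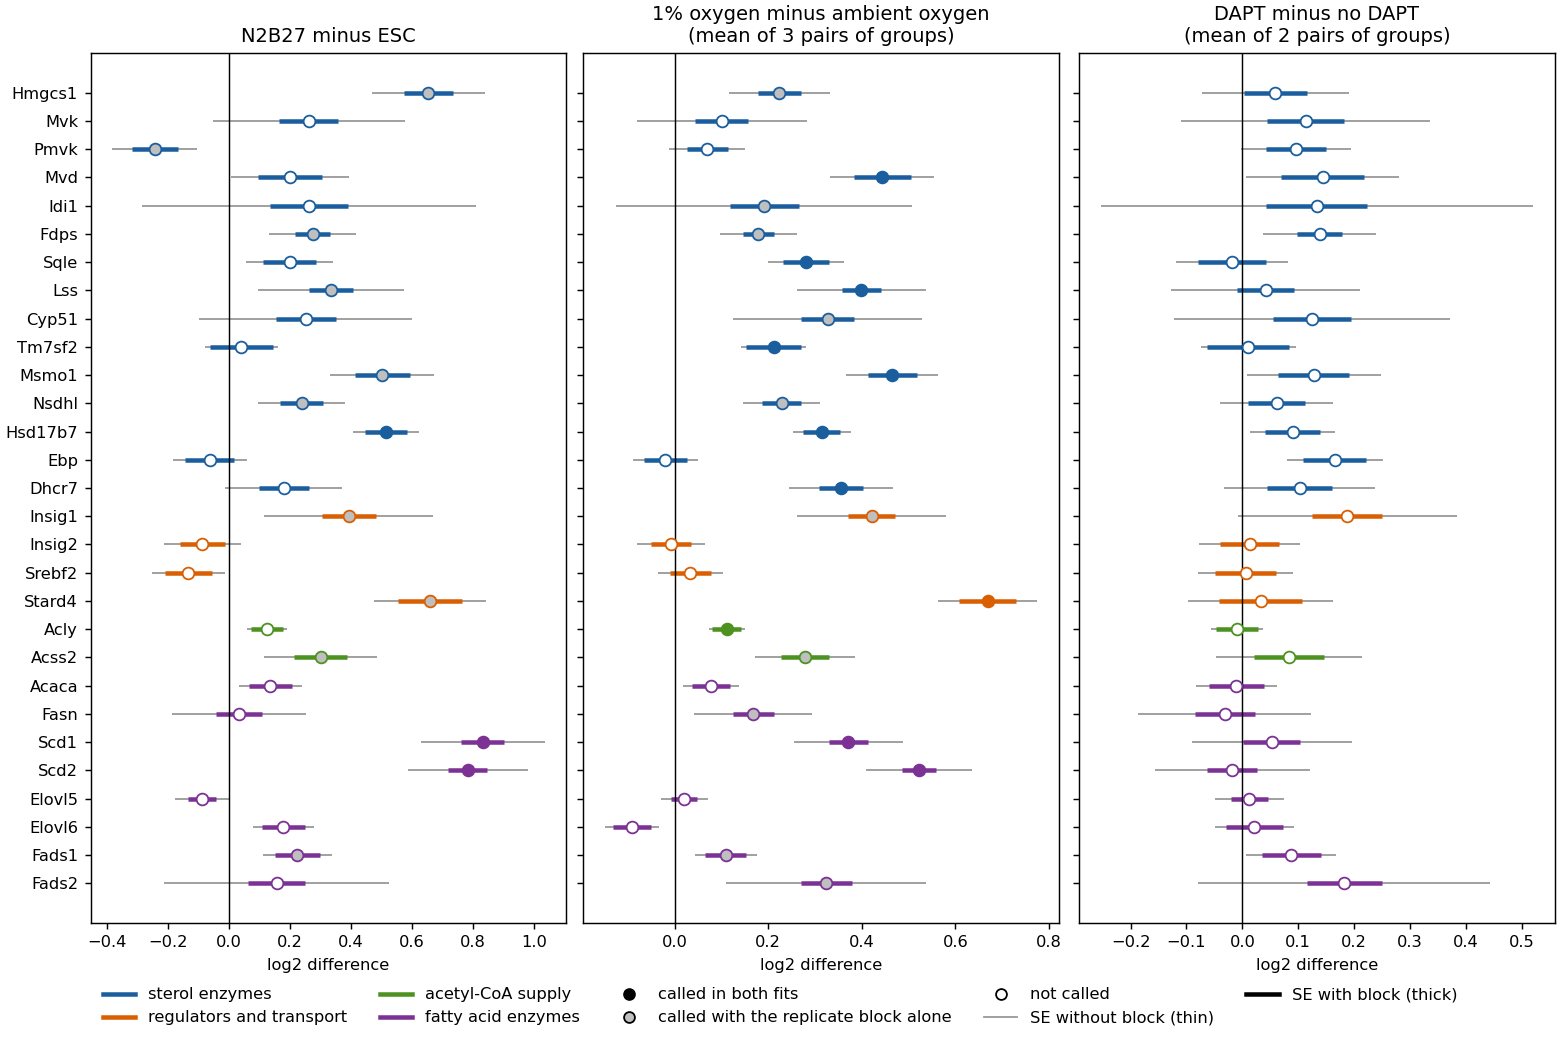
Log2 difference of each tested member (29 rows, coloured by class) in N2B27 minus ESC, in 1% oxygen minus ambient oxygen as the mean of 3 pairs of groups, and in DAPT minus no DAPT as the mean of 2 pairs of groups. Thin bars are SE without and thick bars SE with the replicate block; filled points were called in both fits, grey points with the block alone and open points in neither. Members lie mostly right of 0 in the first 2 panels, with medians of 0.23 and 0.22, and nearer 0 with DAPT, at 0.06.

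The promoter windows of 3 members are shown because these genes moved in several comparisons or hold the letters searched for. The windows run from 250 bases before to 50 bases after the annotated start, in the RefSeq annotation of GRCm38.p6, and a window was given for 26 of the 33 genes. Hsd17b7 was the sterol enzyme called in most comparisons, and Fads2 was the fatty acid enzyme with a window that was called most often with the block. Hmgcs1 was added after its sequence was seen, as the holder of the sterol element. Matches to 2 motifs, on either strand, are in capitals. The first is TCACNCCAC, a form of the sterol regulatory element bound by SREBP, and the second is CCAAT or its reverse complement, bound by NF-Y. The windows lie at chr13:119690101-119690400 on the plus strand for Hmgcs1, at chr1:169969156-169969455 on the minus strand for Hsd17b7 and at chr19:10101454-10101753 on the minus strand for Fads2, each printed 5′ to 3′ along its gene.
Hmgcs1: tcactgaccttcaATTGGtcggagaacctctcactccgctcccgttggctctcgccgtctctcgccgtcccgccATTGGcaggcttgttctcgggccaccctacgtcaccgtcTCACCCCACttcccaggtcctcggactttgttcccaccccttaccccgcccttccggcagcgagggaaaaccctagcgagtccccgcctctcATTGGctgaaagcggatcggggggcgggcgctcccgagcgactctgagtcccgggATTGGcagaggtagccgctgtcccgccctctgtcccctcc
Hsd17b7: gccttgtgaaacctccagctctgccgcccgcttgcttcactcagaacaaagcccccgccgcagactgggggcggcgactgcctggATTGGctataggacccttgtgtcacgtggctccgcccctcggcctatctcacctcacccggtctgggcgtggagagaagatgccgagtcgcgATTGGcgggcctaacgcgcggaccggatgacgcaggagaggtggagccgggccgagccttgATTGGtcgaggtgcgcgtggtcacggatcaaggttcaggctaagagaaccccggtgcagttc
Fads2: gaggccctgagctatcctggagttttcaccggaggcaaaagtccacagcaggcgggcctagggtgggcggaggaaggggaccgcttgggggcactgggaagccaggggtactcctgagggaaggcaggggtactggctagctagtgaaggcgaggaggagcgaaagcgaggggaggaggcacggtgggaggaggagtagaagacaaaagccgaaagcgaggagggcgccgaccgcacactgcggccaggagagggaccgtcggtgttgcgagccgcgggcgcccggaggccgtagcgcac
The Hmgcs1 window holds 1 match to TCACNCCAC and 4 to CCAAT, the Hsd17b7 window 0 and 3, and the Fads2 window 0 and 0. The counts over members with a window include Acat2, Sc5d and Srebf1, whose expression was not tested. Over the members with a window, TCACNCCAC was found in 1 of 26 genes, against 1.44% of 27025 genes. CCAAT was found in 22 of 26 members and in 14 of 15 sterol enzymes with a window, against 41.1% of all genes. The hypoxia element core, searched on both strands as ACGTG and also as GCGTG, was found in 17 of 26 members, against 46.7% of all genes. A match describes the letters in this window only, and a window without a match says nothing about a factor.

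Low oxygen was compared with ambient oxygen in 3 settings, which are N2B27 with DAPT, N2B27 with doxycycline and N2B27 alone, and as the mean of the 3 differences. The N2B27 samples are the lower side of 1 of these differences and the upper side of the comparison with ESC, so those comparisons share samples. In the mean over the settings, 11 members were higher under 1% oxygen and 0 lower, where 7.76% of all genes were called higher and 9.83% lower. They were Stard4, the desaturase genes Scd2 and Scd1, Acly, which makes cytosolic acetyl-CoA from citrate, and 7 sterol enzymes (Msmo1, Mvd, Lss, Dhcr7, Hsd17b7, Sqle and Tm7sf2). With the block 21 members were higher and 0 lower, where 17.0% and 24.5% of all genes were. The block added Insig1, Cyp51, Fads2, Acss2, Nsdhl, Hmgcs1, Idi1, Fdps, Fasn and Fads1. With median scaling of the arrays in place of quantile normalization, 5 of the 11 calls remained, and Sqle, Lss, Tm7sf2, Dhcr7, Acly and Scd1 were not called. Of all 9809 genes, median scaling called 2197, of which 583 were higher and the rest lower. The block with median scaling called 17 members higher and 1 lower, Elovl6. Of all genes it called 4517, of which 1174 were higher and the rest lower. The median difference of the 29 members was 0.22, against -0.02 over all genes tested.

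Stard4 had the largest difference of the members under low oxygen. Stard4 levels were 12.11, 11.91, 11.84 and 11.24 in 1% O2+DAPT samples, against 11.16, 10.85, 11.28 and 10.73 in DAPT samples. Under doxycycline, Stard4 stood at 11.81, 11.64, 11.89 and 11.19 in 1% O2+Dox samples, against 11.22, 10.90, 11.03 and 10.88 in Dox samples. Without either compound, Stard4 measured 12.01, 11.78, 11.69 and 11.17 in 1% O2 samples, against 11.15, 10.99, 11.11 and 10.95 in N2B27 samples. In plain N2B27 the Stard4 groups did not overlap, and in the other settings replicate 4 was the only low oxygen sample not above the highest control sample. The mean Stard4 difference was 0.67 ± 0.11 (1.59-fold, limma adjusted p = 5.51e-05). In the setting with DAPT it was 0.77 ± 0.18 (limma adjusted p = 0.0133, and 1.05e-05 with the block). Without the block, leaving out 1 sample ended that call in 3 of 8 cases (highest adjusted p = 0.0687, without 1% O2+DAPT replicate 1). Among the regulators, Insig1 differed by 0.42 ± 0.16 (limma adjusted p = 0.0725, and 4.86e-07 with the block). Its levels ranged over 8.58 to 9.78 in the low oxygen samples and over 8.30 to 9.29 in the N2B27, Dox and DAPT samples. Srebf2 and Insig2 differed by 0.03 ± 0.07 and -0.01 ± 0.07 and were called in neither fit.

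The early steps of sterol synthesis were represented by the mevalonate and isoprenoid enzymes. Mvd, the decarboxylase that closes the mevalonate steps, was called. Mvd levels were 9.85, 9.77, 9.47 and 9.06 in 1% O2+DAPT samples, against 9.32, 9.20, 9.00 and 9.06 in DAPT samples. Under doxycycline, Mvd stood at 9.88, 9.53, 9.65 and 9.01 in 1% O2+Dox samples, against 9.22, 9.03, 9.18 and 8.94 in Dox samples. Without either compound, Mvd measured 9.84, 9.65, 9.51 and 8.83 in 1% O2 samples, against 9.10, 9.00, 8.94 and 8.72 in N2B27 samples. In each setting 3 of the 4 low oxygen samples of Mvd lay above every control sample, and replicate 4 did not. The mean Mvd difference was 0.44 ± 0.11 (1.36-fold, limma adjusted p = 0.00572). Among the other early enzymes, Hmgcs1 (0.22 ± 0.11), Idi1 (0.19 ± 0.32) and Fdps (0.18 ± 0.08) were called with the block alone, and Mvk (0.10 ± 0.18) and Pmvk (0.07 ± 0.08) in neither fit. Sqle, the oxygen-using epoxidase that commits squalene to the sterol branch, was called as well. Sqle levels were 13.42, 13.36, 13.01 and 12.82 in 1% O2+DAPT samples, against 12.89, 12.90, 12.70 and 12.68 in DAPT samples. Under doxycycline, Sqle stood at 13.05, 13.32, 13.08 and 12.69 in 1% O2+Dox samples, against 12.85, 13.07, 12.71 and 12.79 in Dox samples. Without either compound, Sqle measured 13.27, 13.33, 13.13 and 12.84 in 1% O2 samples, against 12.99, 12.85, 12.96 and 12.56 in N2B27 samples. Sqle groups overlapped in every setting, where replicate 4 of each low oxygen group, and replicate 1 of 1% O2+Dox, did not exceed the highest control sample, and the paired difference was positive in 11 of the 12 pairs. The mean Sqle difference was 0.28 ± 0.08 (1.21-fold, limma adjusted p = 0.0174), and a second, dimmer Sqle probe gave 0.45 without being called (limma adjusted p = 0.182 over all probes). With the mean of both probes Sqle was not called (limma adjusted p = 0.0773).

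Lss makes lanosterol, the first sterol of the route. Lss levels were 11.50, 11.35, 10.96 and 10.58 in 1% O2+DAPT samples, against 10.93, 10.86, 10.70 and 10.24 in DAPT samples. Under doxycycline, Lss stood at 11.40, 11.40, 10.89 and 10.70 in 1% O2+Dox samples, against 11.00, 11.04, 10.59 and 10.43 in Dox samples. Without either compound, Lss measured 11.47, 11.36, 10.92 and 10.53 in 1% O2 samples, against 10.92, 10.96, 10.46 and 10.15 in N2B27 samples. Replicates 1 and 2 under low oxygen exceeded every control sample of Lss in each setting, while replicate 4 did so in none. The mean Lss difference was 0.40 ± 0.14 (1.32-fold, limma adjusted p = 0.0468). Cyp51, the oxygen-using demethylase that follows, differed by 0.33 ± 0.20 and was called with the block alone (6.01e-05). Tm7sf2, a sterol reductase of the next step, was the dimmest member called. Tm7sf2 levels were 7.47, 7.43, 7.72 and 7.20 in 1% O2+DAPT samples, against 7.32, 7.29, 7.07 and 7.15 in DAPT samples. Under doxycycline, Tm7sf2 stood at 7.18, 7.62, 7.37 and 7.35 in 1% O2+Dox samples, against 7.22, 7.29, 7.41 and 7.51 in Dox samples. Without either compound, Tm7sf2 measured 7.20, 7.80, 7.64 and 7.37 in 1% O2 samples, against 7.14, 7.16, 7.23 and 7.03 in N2B27 samples. The Tm7sf2 samples of 1% O2+Dox and Dox were interleaved, and low oxygen was the higher in 1 of their 4 pairs, against 4 of 4 in each other setting. The mean Tm7sf2 difference was 0.21 ± 0.07 (1.16-fold, limma adjusted p = 0.0348).

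Msmo1 takes off the remaining methyl groups with oxygen. Msmo1 levels were 13.73, 13.72, 13.44 and 12.93 in 1% O2+DAPT samples, against 13.07, 12.93, 13.13 and 12.72 in DAPT samples. Under doxycycline, Msmo1 stood at 13.57, 13.55, 13.38 and 12.91 in 1% O2+Dox samples, against 12.94, 13.10, 12.83 and 12.76 in Dox samples. Without either compound, Msmo1 measured 13.41, 13.59, 13.35 and 12.90 in 1% O2 samples, against 12.93, 12.90, 12.92 and 12.67 in N2B27 samples. Apart from replicate 4, every low oxygen sample of Msmo1 lay above all samples of its control. The mean Msmo1 difference was 0.47 ± 0.10 (1.38-fold, limma adjusted p = 0.00130). Nsdhl, which works on the same carbon, differed by 0.23 ± 0.08 (limma adjusted p = 0.0581, and 0.000105 with the block). Hsd17b7 completes the same demethylation cycle. Hsd17b7 levels were 11.26, 11.08, 10.95 and 10.71 in 1% O2+DAPT samples, against 10.75, 10.60, 10.58 and 10.43 in DAPT samples. Under doxycycline, Hsd17b7 stood at 10.98, 10.98, 10.87 and 10.62 in 1% O2+Dox samples, against 10.79, 10.71, 10.58 and 10.55 in Dox samples. Without either compound, Hsd17b7 measured 10.98, 10.91, 10.98 and 10.61 in 1% O2 samples, against 10.63, 10.51, 10.54 and 10.49 in N2B27 samples. Low oxygen samples of Hsd17b7 were above all their controls in each setting except for replicate 4. The mean Hsd17b7 difference was 0.31 ± 0.06 (1.24-fold, limma adjusted p = 0.000689). In the setting with DAPT it was 0.41 ± 0.11 (limma adjusted p = 0.0287, and 0.000154 with the block). Without the block, that call ended in 6 of 8 omissions of 1 sample (highest adjusted p = 0.133, without 1% O2+DAPT replicate 1).

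Dhcr7 catalyses the last reduction to cholesterol. Dhcr7 levels were 9.79, 9.81, 9.71 and 9.23 in 1% O2+DAPT samples, against 9.29, 9.42, 9.43 and 8.93 in DAPT samples. Under doxycycline, Dhcr7 stood at 9.49, 9.86, 9.80 and 9.03 in 1% O2+Dox samples, against 9.12, 9.41, 9.43 and 9.09 in Dox samples. Without either compound, Dhcr7 measured 9.60, 9.84, 9.71 and 9.06 in 1% O2 samples, against 9.22, 9.15, 9.32 and 8.88 in N2B27 samples. Replicate 4 was the lowest Dhcr7 sample of 6 of these 6 groups and the only low oxygen sample not above every control. The mean Dhcr7 difference was 0.35 ± 0.11 (1.28-fold, limma adjusted p = 0.0258). Ebp, the isomerase of the late steps, differed by -0.02 ± 0.07, the only sterol enzyme with a negative value.

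Of the fatty acid enzymes, the 2 stearoyl-CoA desaturase genes were called under low oxygen. Scd2 levels were 15.31, 14.96, 15.15 and 14.52 in 1% O2+DAPT samples, against 14.87, 14.40, 14.35 and 13.98 in DAPT samples. Under doxycycline, Scd2 stood at 15.10, 15.01, 14.80 and 14.43 in 1% O2+Dox samples, against 14.67, 14.39, 14.35 and 14.06 in Dox samples. Without either compound, Scd2 measured 15.24, 15.03, 14.93 and 14.67 in 1% O2 samples, against 14.79, 14.45, 14.46 and 14.13 in N2B27 samples. Scd2 was higher in 12 of the 12 pairs, and replicate 4 was again the only low oxygen sample not above the highest control sample. The mean Scd2 difference was 0.52 ± 0.11 (1.44-fold, limma adjusted p = 0.00167). Scd1 levels were 12.18, 12.21, 12.37 and 11.59 in 1% O2+DAPT samples, against 11.80, 11.59, 11.77 and 11.32 in DAPT samples. Under doxycycline, Scd1 stood at 11.91, 12.12, 12.18 and 11.42 in 1% O2+Dox samples, against 11.61, 11.64, 11.83 and 11.30 in Dox samples. Without either compound, Scd1 measured 11.97, 12.05, 12.32 and 11.53 in 1% O2 samples, against 11.67, 11.67, 11.99 and 11.20 in N2B27 samples. Scd1 was also higher in 12 of the 12 pairs. Replicate 4 of each low oxygen group did not exceed the highest control sample of Scd1. Neither did 1% O2 replicate 1, at 11.97 against 11.99 in N2B27 replicate 3. The mean Scd1 difference was 0.37 ± 0.12 (1.29-fold, limma adjusted p = 0.0276).

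Fads2, the delta-6 desaturase, was the most variable fatty acid enzyme. Fads2 levels were 9.30, 9.10, 8.53 and 8.04 in 1% O2+DAPT samples, against 8.68, 8.68, 8.14 and 7.28 in DAPT samples. Under doxycycline, Fads2 stood at 8.73, 8.91, 8.38 and 7.59 in 1% O2+Dox samples, against 8.68, 8.52, 8.01 and 7.87 in Dox samples. Without either compound, Fads2 measured 8.89, 8.94, 8.19 and 7.71 in 1% O2 samples, against 8.59, 8.36, 8.13 and 7.51 in N2B27 samples. Fads2 levels were lower in replicates 3 and 4 of every group, and all groups overlapped. The mean Fads2 difference was 0.32 ± 0.21 (limma adjusted p = 0.374, and 4.54e-05 with the block). Fasn (0.17 ± 0.13) and Fads1 (0.11 ± 0.07) were called with the block alone, with adjusted p-values of 0.00334 and 0.0472. Acaca (0.08 ± 0.06) and the elongase genes Elovl5 (0.02 ± 0.05) and Elovl6 (-0.09 ± 0.06) were called in neither fit.

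Acly was the member with the smallest called difference. Acly levels were 13.81, 13.64, 13.64 and 13.62 in 1% O2+DAPT samples, against 13.70, 13.53, 13.61 and 13.54 in DAPT samples. Under doxycycline, Acly stood at 13.78, 13.64, 13.65 and 13.64 in 1% O2+Dox samples, against 13.49, 13.66, 13.55 and 13.51 in Dox samples. Without either compound, Acly measured 13.77, 13.65, 13.79 and 13.63 in 1% O2 samples, against 13.66, 13.60, 13.57 and 13.51 in N2B27 samples. Acly levels spanned 13.40 to 13.81 over all groups and overlapped in each setting. The mean Acly difference was 0.11 ± 0.04 (1.08-fold, limma adjusted p = 0.0428). Acss2, which makes acetyl-CoA from acetate, differed by 0.28 ± 0.11 and was called with the block alone (0.000103). In the fit without the block, leaving out 1 of the 24 samples ended some calls in the mean. This held for Lss and Acly in 14 cases each, Tm7sf2 in 10, Scd1 in 6 and Dhcr7 in 4. The highest adjusted p was 0.0903 for Lss without 1% O2 replicate 1, and 0.0844 for Acly without 1% O2+DAPT replicate 1. It was 0.0704 for Tm7sf2 without 1% O2+DAPT replicate 3, 0.0568 for Scd1 without 1% O2 replicate 3 and 0.0520 for Dhcr7 without 1% O2+Dox replicate 3. With the block and all samples, the limma adjusted p-values were 4.98e-08 for Lss, 0.00557 for Acly and 0.00630 for Tm7sf2. They were 1.46e-07 for Scd1 and 2.21e-06 for Dhcr7.

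**Figure D2:**
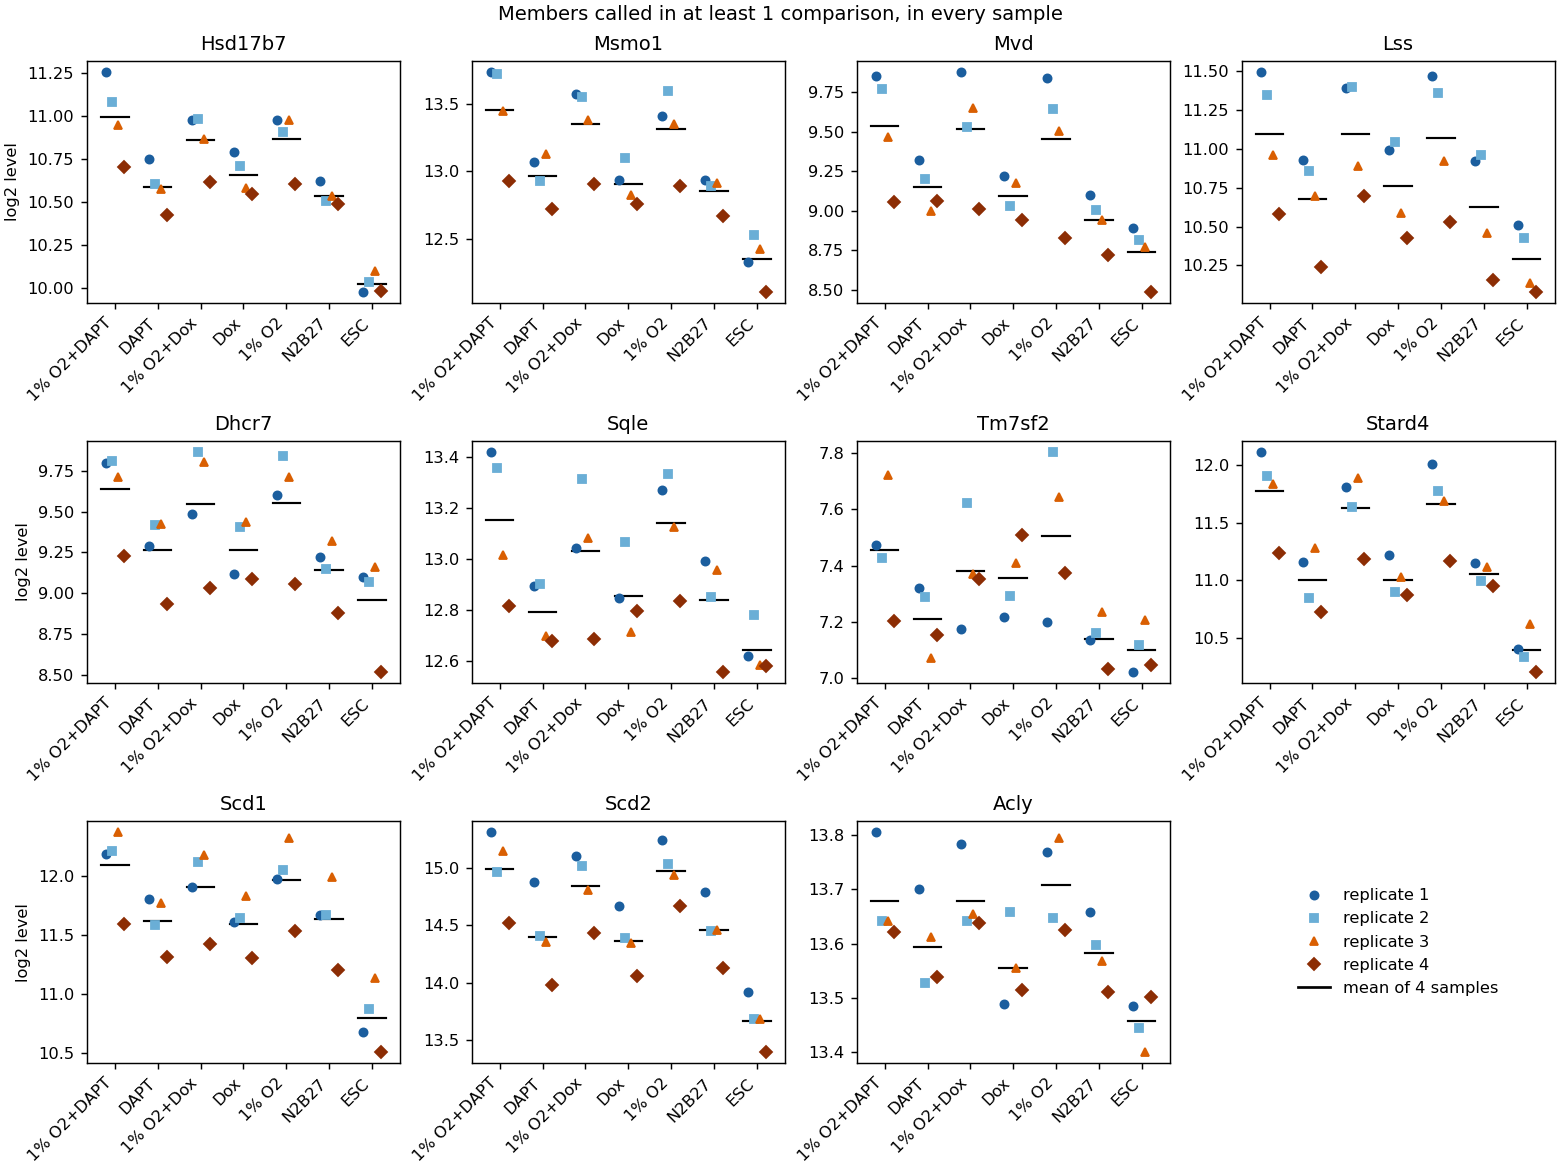
Log2 normalized intensity (y axis) of the 11 members called in at least 1 comparison, in every sample of the 7 groups (x axis), with a colour and symbol for each replicate number and a line at the mean of 4 samples. ESC samples are lowest for Hsd17b7, Msmo1, Stard4, Scd1 and Scd2, and replicate 4 (dark diamonds) is the lowest low oxygen sample for 10 of the 11 genes in all 3 settings (all but Tm7sf2), for example at 11.24 in 1% O2+DAPT for Stard4.

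The responses in the 3 settings were then set side by side. Without the block, 2 members (Stard4 and Hsd17b7) were called higher in 1% O2+DAPT against DAPT, 0 in 1% O2+Dox against Dox and 0 in 1% O2 against N2B27. Of all genes, 2.69% were called higher and 1.35% lower (4.04% in either direction) with DAPT. The shares were 2.65% and 1.42% (4.07%) with doxycycline and 2.83% and 1.28% (4.12%) in N2B27 alone. At an unadjusted limma p under 0.05 there were 6, 4 and 8 members, and 1397, 1350 and 1353 of the 9809 genes. With the block, 15, 13 and 18 members were called higher and 0 lower in any of the 3, where 9.38%, 9.12% and 9.17% of all genes were called higher, and 21.0%, 19.5% and 20.0% in either direction. The members' median was 0.24 with DAPT, 0.18 with doxycycline and 0.24 in N2B27 alone. With the block and median scaling, 7 members were higher and 2 lower with DAPT (Elovl6 and Insig2), where the members' median was 0.10 and that of all genes -0.12. Over all 9809 genes, that fit called 3331, of which 559 were higher and the rest lower. Differences between settings were tested as interactions over all genes. For the setting with DAPT against N2B27 alone, 0 of 29 members were called in either fit, and 0 had an unadjusted limma p under 0.05 with or without the block (58 of all genes without and 418 with it). For doxycycline against N2B27 alone, 0 members were called in either fit, and at an unadjusted limma p under 0.05 there were 0 without and 1 with the block (57 and 398 of all genes). The largest interaction estimates were 0.27 ± 0.52 for Fads2 with DAPT and -0.34 ± 0.17 for Tm7sf2 with doxycycline.

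**Figure D3:**
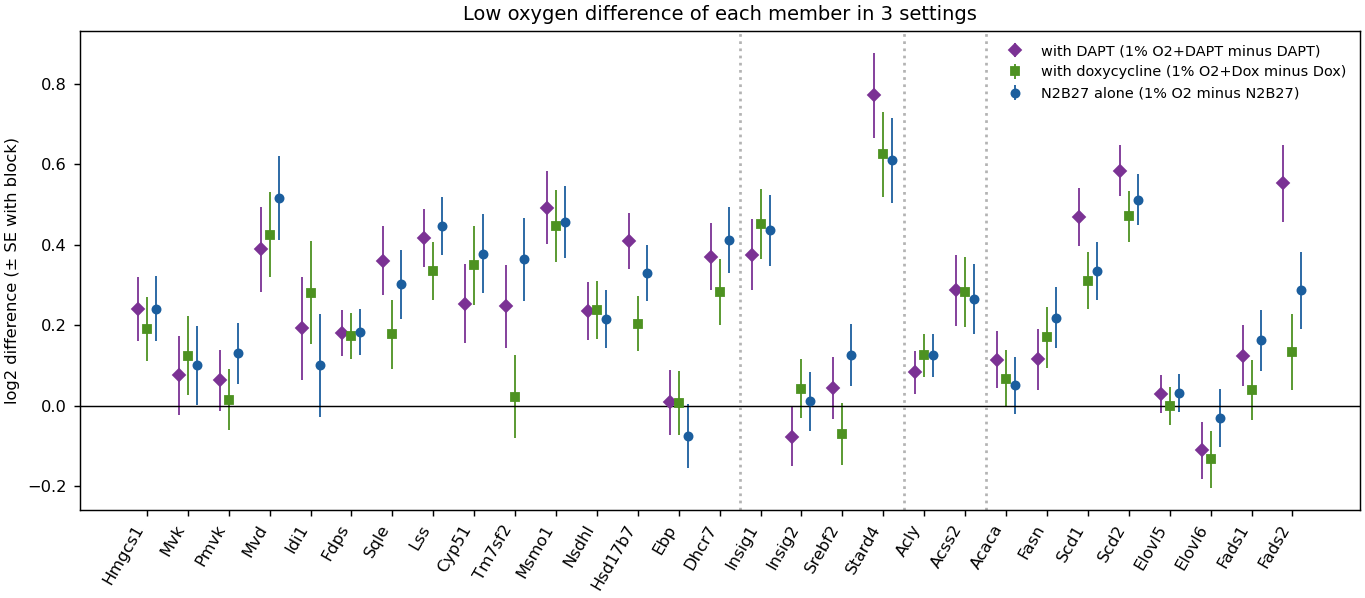
Log2 difference between 1% and ambient oxygen (y axis, ± SE of the blocked fit) for each tested member (x axis, in pathway order, with dotted lines between classes), with DAPT, with doxycycline and in N2B27 alone. Stard4 has the highest points in all 3 settings (0.77, 0.62 and 0.61), while Elovl6 lies below 0 in all 3 (-0.11, -0.13 and -0.03).

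The size of the low oxygen difference varied with the replicate number. In replicate 4 the median over the 29 members was 0.14 with DAPT, 0.02 with doxycycline and 0.13 in N2B27 alone. In replicate 2 it was 0.38, 0.33 and 0.36 in the same settings, and replicates 1 and 3 lay between, at 0.20 to 0.24. The median over all genes tested lay between -0.03 and -0.01 in these 12 pairs. In replicates 1 and 2 alone, 16 members were called in the mean over the settings, and in replicates 3 and 4 alone 1 member was, Scd2. Over all 9809 genes, 820 were called higher in the first set and 523 in the second. The median of the members was 0.26 in the first set and 0.18 in the second. The origin of the replicate sets is not given in the labels, and its part in these differences was not tested.

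Of the tested members, 7 encode enzymes that use oxygen, namely Sqle, Cyp51, Msmo1, Scd1, Scd2, Fads1 and Fads2. Under low oxygen their median difference was 0.33, with a range of 0.11 (Fads1) to 0.52 (Scd2), and 4 of 7 were called without and 7 of 7 with the block. The other 18 enzymes had a median of 0.19, with a range of -0.09 (Elovl6) to 0.44 (Mvd), and 6 of 18 were called without and 12 of 18 with the block. All these calls were higher, where 7.76% of all genes were called higher without and 17.0% with the block. The ranges overlapped, and the difference between the groups was not tested. In N2B27 against ESC samples the medians were 0.25 for the oxygen-using and 0.19 for the other enzymes.

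DAPT was compared with no DAPT to ask whether the Notch activity already present in these cells bore on the pathway. No member was called, and the Notch target genes were not called either. In the mean over both oxygen levels Nrarp differed by -0.20 ± 0.20, Hey1 by -0.19 ± 0.15, Hes1 by -0.08 ± 0.09 and Hes5 by 0.06 ± 0.16 with DAPT, so a lower Notch activity was not shown here. In DAPT against N2B27 samples, and in 1% O2+DAPT against 1% O2 samples, 0 of 29 members passed in either fit. At an unadjusted limma p under 0.05 there were 0 and 0 members without the block, and 2 and 3 with it, while 82 and 105 of all genes passed that threshold without and 560 and 594 with it. Over all genes, 0% and 0% were called without the block. The members' differences were small and mostly positive. Mvd levels were 9.32, 9.20, 9.00 and 9.06 in DAPT samples, against 9.10, 9.00, 8.94 and 8.72 in N2B27 samples. Cyp51 levels were 10.64, 10.84, 10.04 and 9.76 in DAPT samples, against 10.52, 10.36, 10.06 and 9.59 in N2B27 samples. Fdps, the synthase of farnesyl diphosphate, had 13.24, 13.14, 13.16 and 12.77 in DAPT samples, against 13.15, 12.95, 13.01 and 12.63 in N2B27 samples. All 3 pairs of ranges overlapped, with differences of 0.21 ± 0.19, 0.19 ± 0.35 and 0.14 ± 0.14, the largest of the sterol enzymes.

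Among the fatty acid enzymes the largest differences with DAPT were smaller still. Fads1 levels were 12.73, 12.67, 13.15 and 12.81 in DAPT samples, against 12.71, 12.57, 12.95 and 12.71 in N2B27 samples (0.11 ± 0.11). Elovl6, which lengthens palmitate, had 11.94, 11.95, 12.01 and 11.94 in DAPT samples, against 11.72, 11.89, 12.06 and 11.92 in N2B27 samples (0.06 ± 0.10). Scd2 had 14.87, 14.40, 14.35 and 13.98 in DAPT samples, against 14.79, 14.45, 14.46 and 14.13 in N2B27 samples (-0.05 ± 0.20). The groups overlapped for each of these genes. In the mean over both oxygen levels, 24 of 29 members had positive values and 12 were positive for 4 of 4 replicate numbers, which held for 7.30% of all genes. The median was 0.06 for all members, 0.10 for the sterol and 0.02 for the fatty acid enzymes, against -0.01 over all genes. With median scaling these medians were 0.03, 0.07 and -0.02, against -0.03 over all genes. No member was called in that mean by limma in either fit (0% and 0.0102% of all genes were), with 0 at an unadjusted p under 0.05 without the block and 4 with it (130 and 745 of all genes). The smallest of these unadjusted p-values was 0.00225, for Fdps (0.14 ± 0.04, blocked SE).

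Doxycycline likewise left the members uncalled by limma in either fit. This held for 0 of 29 members in Dox against N2B27 samples, where 0.336% of all genes were called without the block, and for 0 of 29 in 1% O2+Dox against 1% O2 samples, where 0.194% were. With the block 1.73% of all genes were called at ambient oxygen (1.02% higher, 0.714% lower). Under 1% oxygen 1.46% were (0.734% higher, 0.724% lower), against 0.122% higher and 0.0714% lower without it. At an unadjusted p under 0.05 there were 0 and 0 members without the block, and 3 and 2 with it, and 228 and 241 of all genes without the block, and 859 and 993 with it. Differences ranged from -0.09 to 0.22 at ambient oxygen and from -0.16 to 0.20 under 1% oxygen, with medians of 0.03 and -0.01. The widest were Tm7sf2 at ambient oxygen (0.22 ± 0.12) and Idi1 under 1% oxygen (0.20 ± 0.55).

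The sterol and fatty acid branches were compared through the mean of their members' levels, each set relative to the gene's own mean over the 28 samples. The sterol mean was 0.24 ± 0.22 in 1% O2+DAPT, 0.18 ± 0.20 in 1% O2+Dox and 0.15 ± 0.24 in 1% O2 samples (SD, n = 4 each). It was -0.03 ± 0.15 in DAPT, -0.04 ± 0.07 in Dox, -0.12 ± 0.15 in N2B27 and -0.37 ± 0.11 in ESC samples. The fatty acid mean was 0.21 ± 0.17 in 1% O2+DAPT, 0.09 ± 0.14 in 1% O2+Dox and 0.15 ± 0.11 in 1% O2 samples. It was -0.03 ± 0.15 in DAPT, -0.05 ± 0.06 in Dox, -0.04 ± 0.13 in N2B27 and -0.33 ± 0.09 in ESC samples. By group mean, both branches were thus lowest in ESC and highest in the low oxygen groups. Sterol means of single samples overlapped, for example at -0.33 in N2B27 replicate 4 and -0.24 in ESC replicate 3. In 1% O2 replicate 4 the sterol mean was -0.21, against 0.01 in N2B27 replicate 1. These SDs hold the spread between replicate numbers, which the paired values below leave out. N2B27 exceeded ESC by 0.24 in the sterol branch (0.17 to 0.36 over the 4 pairs) and by 0.28 in the fatty acid branch (0.22 to 0.35). The sterol difference less the fatty acid difference was -0.04, with a range of -0.14 to 0.01 over the pairs. Most of the fatty acid mean difference came from Scd1 (0.83) and Scd2 (0.78). By the median of the genes the order was the other way, at 0.25 for the sterol and 0.17 for the fatty acid enzymes.

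Under low oxygen the sterol branch moved by 0.26 with DAPT, 0.22 with doxycycline and 0.27 in N2B27 alone, and the fatty acid branch by 0.23, 0.13 and 0.20. With median scaling of the arrays the median of the fatty acid enzymes in the DAPT setting was -0.01. The gap between the branches was 0.03 (-0.02 to 0.11 over the pairs), 0.09 (0.03 to 0.15) and 0.08 (-0.06 to 0.19). It included 0 in the range of the pairs with DAPT and in N2B27 alone but not with doxycycline. With DAPT at ambient oxygen the sterol branch moved by 0.10 and the fatty acid branch by 0.02, a gap of 0.08 (-0.00 to 0.14). With doxycycline at ambient oxygen the branches moved by 0.08 and -0.00, a gap of 0.09 (0.00 to 0.19). The sterol difference was the larger in 4 of 4 pairs there and in 4 of 4 pairs of 1% O2+Dox against 1% O2 (gap 0.09, 0.04 to 0.18). All these gaps are descriptions over means of 15 and 8 genes, several of the comparisons share their control samples, and no test was run on them.

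**Figure D4:**
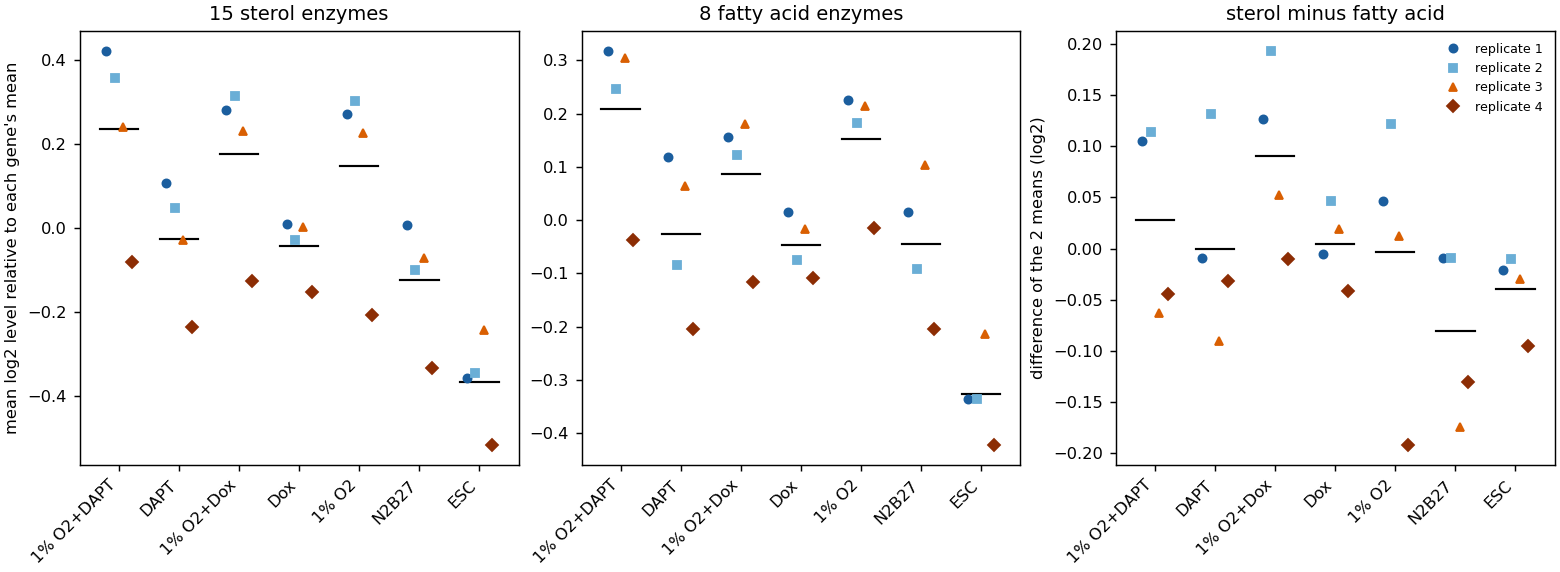
Mean log2 level of the 15 tested sterol enzymes and of the 8 fatty acid enzymes in each sample, relative to each gene's mean over 28 samples, and the difference of the 2 means, by group (x axis), with a symbol for each replicate number and a line at the mean of 4 samples. Both branch means are lowest in ESC (-0.37 and -0.33) and highest in 1% O2+DAPT (0.24 and 0.21), and replicate 4 is the lowest sample of every group for both.

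Members differed in how closely they followed the branches. Over the 28 samples, after taking out the mean of each replicate number, Pearson's r with the mean of the other sterol enzymes was 0.96 for Nsdhl, Msmo1, Hsd17b7 and Stard4. It was 0.09 for Pmvk, -0.08 for Ebp, -0.10 for Srebf2, -0.22 for Elovl5 and -0.26 for Insig2. Scd1 and Scd2 had an r of 0.94 and 0.93 with the sterol mean, as high as with the other fatty acid enzymes (0.95 and 0.94). Outside the list, the genes nearest to the sterol mean were the metallothionein gene Mt2 (r = 0.95), Jakmip1 (0.94), Aacs, which makes acetoacetyl-CoA in the cytosol (0.93), Hmgn5, Mt1, BC028528, Dennd2c, Tle6, Casp6 and Rdh11. The nearest to the fatty acid mean were Mt2 (0.95), Irx3 (0.94), Mt1 (0.93), Kit, Wipi1, Cpne9, Hmgn5, Mmab, Plxdc1 and H2bc22. These correlations describe 28 samples that share treatment groups and arrays processed together, and they carry no test.

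Other genes of lipid handling, listed by pathway, gave a mixed picture beside the members. Over all genes, 1.22% were called higher and 0.714% lower in N2B27 than in ESC samples without the block, and 8.37% and 7.69% with it. Under low oxygen the shares were 7.76% and 9.83% without the block, and 17.0% and 24.5% with it. Several of the counts below lie near these shares, and the lists were not tested as sets against them. Of 23 tested genes of fatty acid activation, elongation and glyceride assembly, 3 were called higher and 8 lower in N2B27 than in ESC samples with the block, and without it 1 was higher, Mid1ip1, an activator of acetyl-CoA carboxylase (0.58 ± 0.10). The lower ones included Agpat2 (-0.70 ± 0.19) and Dgat1 (-0.39 ± 0.13), acyltransferases that build glycerides. Of 13 fatty acid oxidation genes 1 was higher, the carnitine palmitoyltransferase gene Cpt2 (0.42 ± 0.10). Of 15 further sterol genes, 0 were called without the block and 1 higher and 1 lower with it, the lipoprotein receptor gene Vldlr (0.49 ± 0.24) and Erlin1 (-0.21 ± 0.13). Of 15 lipid storage and uptake genes 0 were called without the block, 1 at an unadjusted limma p under 0.05, and with it Cidea was higher (0.72 ± 0.25) and Hilpda (-0.32 ± 0.28) and Plin2 (-0.29 ± 0.29) were lower. Under low oxygen, Vldlr had the largest difference of these lists (2.12 ± 0.14). Rnf145, a ubiquitin ligase that acts on HMG-CoA reductase, was also higher (0.60 ± 0.06), as was the lipoprotein receptor gene Lrp1 (0.57 ± 0.16). In that comparison 3 of 15 further sterol genes were higher and 1 lower without the block, and 6 and 3 with it. Of the 23 further fatty acid genes 5 were higher and 3 lower, and 7 and 4 with the block, among them Pnpla3 (0.60 ± 0.07) and Dgat2 (0.50 ± 0.09). Of 15 lipid storage and uptake genes 1 was higher and 0 lower, the lipid droplet gene Hilpda (0.48 ± 0.16), and 4 and 1 with the block. Of the 13 genes listed under fatty acid oxidation 2 were higher and 0 lower without the block, and 3 and 2 with it. The 2 called without it were Hadha (0.46 ± 0.09) and Pdk1 (0.68 ± 0.05), which closes off pyruvate oxidation rather than acting on fatty acids. Of 5 targets of the sterol sensor LXR, 0 were called without the block and 1 was higher with it in each comparison, the cholesterol exporter gene Abcg1 in N2B27 against ESC samples (0.47 ± 0.14) and Lpcat3 under low oxygen (0.19 ± 0.08).

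Markers of other cell types were read beside these results. Of 8 extraembryonic endoderm markers with a probe, 4 of the 5 tested were called higher under low oxygen, where 7.76% of all genes were. They were Gata6 (0.51 ± 0.12), Sox7 (0.44 ± 0.10), Sox17 (0.36 ± 0.10) and Apoa1 (0.23 ± 0.06). Gata4, the other marker tested, lay above the limit on 28 of 28 samples and was not called higher. Afp, Ttr and Foxa2 lay above the limit on 0 of 28 samples. The summed signal of this list was 1230 to 1753 in 1% O2+DAPT, against 1162 to 1565 in DAPT samples. It was 1163 to 1980 in 1% O2+Dox, against 1025 to 1329 in Dox samples, and 1147 to 2161 in 1% O2, against 1202 to 1541 in N2B27 samples. Of 8 fibroblast markers, Fn1 and Thy1 lay above the limit on 28 of 28 samples, Col1a1 on 27 and Dcn on 16. Col3a1 did so on 5, Col1a2 on 1, and Lum and Postn on 0. Thy1 was called lower under low oxygen (-0.49 ± 0.16), where 9.83% of all genes were. With the block Thy1 (-0.52 ± 0.28) and Dcn (-0.60 ± 0.41) were lower in N2B27 than in ESC samples, where 7.69% of all genes were. With the block the endoderm marker Sox7 was lower there too (-0.44 ± 0.18). The fibroblast sum was 752 to 1452 in N2B27, against 986 to 1951 in ESC samples. Of the 6 neural markers, Tubb3 lay above the limit on 28 of 28 samples, Nes on 26 and Neurod1 on 21, but Sox1, Pax6 and Dcx on 0. The sum over the 6 neural markers was 153 to 434. Of 10 ES cell markers, Klf2 was called higher under low oxygen (0.76 ± 0.10) and Tdgf1 with the block alone (0.80 ± 0.30), with smaller differences called with the block for Klf4, Fgf4 and Sox2 (higher) and Esrrb and Utf1 (lower). With the block 17.0% of all genes were called higher in that comparison and 24.5% lower. The sum over the ES cell markers was 30701 to 40930 over all samples. The part of such cells in the members' differences was not tested, and in bulk samples fewer cells of a type and less RNA per cell cannot be told apart.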

How the data were processed

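RNA of 28 samples was measured on 30 Illumina arrays, and Dox replicates 3 and 4 had a second array each, averaged with the first. The deposited table holds an intensity for each of 24611 probes, which the file headers describe as not normalized. BeadStudio is named, with no version, in the submitters' processing notes. Between 27.2% and 29.9% of the deposited intensities per array were below 0. The authors' processed intensities, deposited separately with a floor of 50, equalled the signal or the floor within 0.05 for 99.96% of probes on the first array. They served as an alternative.

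From these values, background was corrected by normexp (offset 0), followed by log2 and quantile normalization in limma 3.58.1 (R 4.3.3). Probes were named through the platform annotation. A probe passed where it exceeded its array's median on at least 4 of 28 samples, and the brightest passing probe represented its gene. The background limit was the 98th percentile of the mirrored negative signals (29.3 to 41.6 signal units). Precision is limited by the number of arrays. Array means ranged from 645 to 862.

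One linear model per gene (lmFit, eBayes, 21 residual degrees of freedom, two-sided) covered all 28 samples without a block, with Benjamini-Hochberg adjustment per comparison. The 4 replicate numbers recur in each group. Deviations from the group means correlated at 0.70 to 0.84 between samples of the same number, so the numbers pair the samples, and the block fit (18 degrees of freedom) is printed where it changes a call. Separate cultures are not stated for the biological replicates, so p-values measure the spread between these samples, which may be technical. The fits were tested on simulated data. Members and lists were chosen with earlier results of these data known. Values per sample are given for members called without the block and for the 3 sterol and 3 fatty acid members of largest difference in N2B27 against ESC, 1% O2 against N2B27 and DAPT against N2B27, and for Pmvk, chosen after its values were seen. Other pathway genes are named where called with or without the block, taking those of largest difference. Alternatives were median scaling, an offset of 50, the authors' values, no filter, the mean of a gene's probes, each replicate set, and each sample left out. These were run without the block. The block with median scaling was chosen after seeing the data.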

Additional observations from a re-analysis of the deposited data

Results flagged for a closer look

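In 13 of the 203 sets of 4 samples (29 tested members in 7 groups), 1 sample stood apart by Dixon's criterion, and chance alone gives about 5% of such sets. Of the 13 samples, 8 were replicate 4, 3 replicate 3, 2 replicate 1 and 0 replicate 2. The samples of replicate 4 were all below the others of their group. Pmvk had a log2 level of 9.68 in Dox replicate 3, against 9.38 to 9.39 in the other 3. Fdps stood at 12.45 in ESC replicate 4, against 12.71 to 12.75 in the other 3. Fdps stood at 12.93 in 1% O2+Dox replicate 4, against 13.33 to 13.39 in the other 3. Msmo1 was at 12.67 in N2B27 replicate 4, against 12.90 to 12.93 in the other 3. Nsdhl lay at 12.14 in 1% O2 replicate 4, against 12.64 to 12.74 in the other 3. Ebp measured 10.42 in DAPT replicate 4, against 10.60 to 10.63 in the other 3. Ebp measured 10.15 in 1% O2 replicate 4, against 10.41 to 10.45 in the other 3. Dhcr7 was 8.52 in ESC replicate 4, against 9.07 to 9.16 in the other 3. Dhcr7 was 9.23 in 1% O2+DAPT replicate 4, against 9.71 to 9.81 in the other 3. Acly had a log2 level of 13.78 in 1% O2+Dox replicate 1, against 13.64 to 13.65 in the other 3. Acly had a log2 level of 13.81 in 1% O2+DAPT replicate 1, against 13.62 to 13.64 in the other 3. Elovl6 read 12.01 in DAPT replicate 3, against 11.94 to 11.95 in the other 3. Elovl6 read 12.11 in 1% O2+DAPT replicate 3, against 11.75 to 11.77 in the other 3. The cause of these gaps was not tested.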

How the results depend on the processing

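For the counts of members called, the order below is N2B27 against ESC, 1% O2 against N2B27, 1% O2+Dox against Dox, 1% O2+DAPT against DAPT, and the low oxygen mean, which gave 3, 0, 0, 2 and 11. With the replicate block they were 13, 18, 13, 15 and 21, and with the block and median scaling, chosen after seeing the data, 11, 12, 9, 9 and 18, of which 2 were lower in 1% O2+DAPT against DAPT (Elovl6 and Insig2) and 1 in the low oxygen mean (Elovl6). Over all 9809 genes, the block with median scaling called 3331 in 1% O2+DAPT against DAPT (559 higher). In the low oxygen mean it called 4517 (1174 higher). Median scaling alone gave 2, 0, 0, 1 and 5 members. Under it the median of all genes in 1% O2+DAPT against DAPT was -0.12, against -0.02 by quantile normalization, and the members' median was 0.10, against 0.24. The share of higher calls over all genes there was 195 of 833, against 264 of 396, and in the low oxygen mean 583 of 2197, against 761 of 1725. In that scaling the fatty acid median was -0.01 in 1% O2+DAPT against DAPT (0.12 by quantile normalization), -0.07 in 1% O2+DAPT against 1% O2 (0.02) and -0.02 in the DAPT mean (0.02), and the sterol median in 1% O2+DAPT against 1% O2 was -0.01 (0.08). An offset of 50 gave 3, 0, 1, 2 and 11, the authors' processed values 1, 3, 1, 1 and 11, no filter on dim probes 1, 0, 0, 1 and 8, and the mean of a gene's probes 3, 0, 0, 2 and 10. Replicates 1 and 2 alone gave 1, 5, 5, 8 and 16, and replicates 3 and 4 alone 0, 0, 0, 0 and 1. Leaving out 1 sample, without the block, gave 1 to 3, 0 to 4, 0 to 2, 0 to 4 and 6 to 14. The first count was 1 without ESC replicate 2 or 4 or N2B27 replicate 1, 2 or 3. The second was 1 without 1% O2 replicate 1. The fourth was 0 without DAPT replicate 2 or 4 or 1% O2+DAPT replicate 1, and 1 without DAPT replicate 3 or 1% O2+DAPT replicate 2 or 3. The low oxygen mean gave 6 without DAPT replicate 4, 7 without N2B27 replicate 4 or 1% O2 replicate 3, and 14 without 1% O2 or 1% O2+Dox replicate 4. The higher counts of 4, 2 and 4 in the single settings each came without replicate 4 of the low oxygen group. The comparisons of DAPT, of doxycycline and both interactions gave 0 under every alternative run. Apart from the counts above, the block ended no call of a member. No called difference of a member changed sign under any alternative run, but medians near 0 in the DAPT and doxycycline comparisons did, as above and with some samples left out. Median scaling ended the calls of Scd1 in N2B27 against ESC (adjusted p = 0.0595), of Hsd17b7 in 1% O2+DAPT against DAPT (0.204), and of Sqle, Lss, Tm7sf2, Dhcr7, Acly and Scd1 in the low oxygen mean (0.0687 to 0.451), and of these Acly alone was also uncalled with the block and median scaling (0.176). The authors' values ended those of Scd1 and Scd2 against ESC (0.0809 and 0.0560), of Stard4 with DAPT (0.0670) and of Scd1 in the mean (0.0742). The cause of these changes was not tested. Signal was not limiting for the 29 tested members, which lay above the limit on every sample.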
